A study of Homo sapiens with 12 samples.

Results

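The guidance genes described here are the Eph receptors and their ephrin ligands, the semaphorins with their plexin and neuropilin receptors, the SLIT ligands with their ROBO receptors, and the UNC5 receptors of netrin. Members were taken by gene name, but the families were chosen with earlier results of these data known. Of the 60617 genes in the deposited TPM table, 64 bear such a name. The 64 genes are 14 Eph receptors, 8 ephrins, 20 semaphorins, 9 plexins, 2 neuropilins, 4 ROBO receptors, 3 SLIT ligands and 4 UNC5 receptors. A row of read counts was found for 63 of them (the count table holds 58575 genes), and PLXNB2 has TPM values only.

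RNA-Seq was measured in 12 libraries of 201B7, an established human iPSC line, with 3 libraries for each of 4 culture conditions. All cells were seeded on dishes coated with iMatrix511 in StemFit medium with the ROCK inhibitor Y-27632, and all were harvested on Day 5. Cond 1 was the control culture in StemFit. Cond 2, labelled low nutrient, received StemFit that had been heated at 56 °C for 30 min. Cond 3, labelled differentiation, received DMEM with 10% FBS, 1% MEM non-essential amino acids and 1% GlutaMax. The study's text places the heated medium from Day 2 and the serum stimulus on Day 4. Time in the 2 media may therefore differ, and differences between Cond 2 and Cond 3 cannot be told apart from it. Cond 4, labelled physical stimulation, was pipetted 20 times at passaging and then cultured as the control. The p-values below rest on the spread between libraries within a condition, estimated over the 4 conditions together. The study calls these replicates technical in places, so that spread may be technical only. All values are from 1 cell line.

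Eph receptors are receptor tyrosine kinases that are activated by ephrins on the surface of a neighbouring cell, and signals pass into both cells. Semaphorins are secreted or membrane-bound ligands of plexins, and most of the secreted class 3 semaphorins also need neuropilins. SLIT proteins repel cells and axons through ROBO receptors, and UNC5 receptors carry the repulsive signal of netrins. These families are known for steering axons, and in epithelia and embryos for cell sorting, boundary formation, adhesion and shape.

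Library totals ranged from 16441148 to 21871503 counts, and the 63 members with counts held between 54124 and 82766 of them. Over the 12 pairs of libraries within a condition, the chi-square per gene was 3.99 to 9.42, which exceeds sampling noise. Counts were tested with edgeR, and a gene was called higher or lower where its p-value, adjusted over all 17747 genes tested, was under 0.05. Of the members, 61 passed the filter on low counts. EPHA5 and ROBO4 did not, with at most 6 and 2 counts in a library, and EPHA3 reached the level of the filter in 4 libraries only, 3 of them from Cond 3. Log2 fold changes are from this fit, and levels are in TPM, which is per length and can be compared between genes. In bulk RNA, fewer cells of a type and less RNA per cell cannot be told apart.

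Control iPSCs expressed most of the guidance genes. In Cond 1, 54 of the 64 members had a mean of at least 1 TPM, 32 of at least 10 TPM and 10 of at least 50 TPM. SEMA6A, a transmembrane semaphorin that binds class A plexins, was the highest at 234 ± 9.10 TPM (SD, n = 3) and made up 14.2% of the summed level of all members. SEMA6B followed at 138 ± 5.66 TPM, and the libraries of these genes overlapped neither each other nor those of the gene next in order. SEMA4C at 116 ± 6.49 TPM and the receptor EPHB4 at 113 ± 2.61 TPM were next, and their libraries overlapped. The plexins PLXNA1 (82.9 TPM), PLXNB2 (79.2 TPM) and PLXNB1 (77.5 TPM), and then UNC5B (67.4 TPM), SEMA3F (52.5 TPM) and EPHA2 (51.4 TPM) completed the 10 highest. At the other end, 7 members stayed under a mean of 1 TPM in every condition. ROBO4, known from endothelium, was listed at 0 in all libraries but 1, and EPHA5 was at 0 in all 3 control libraries.

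**Figure D1:**
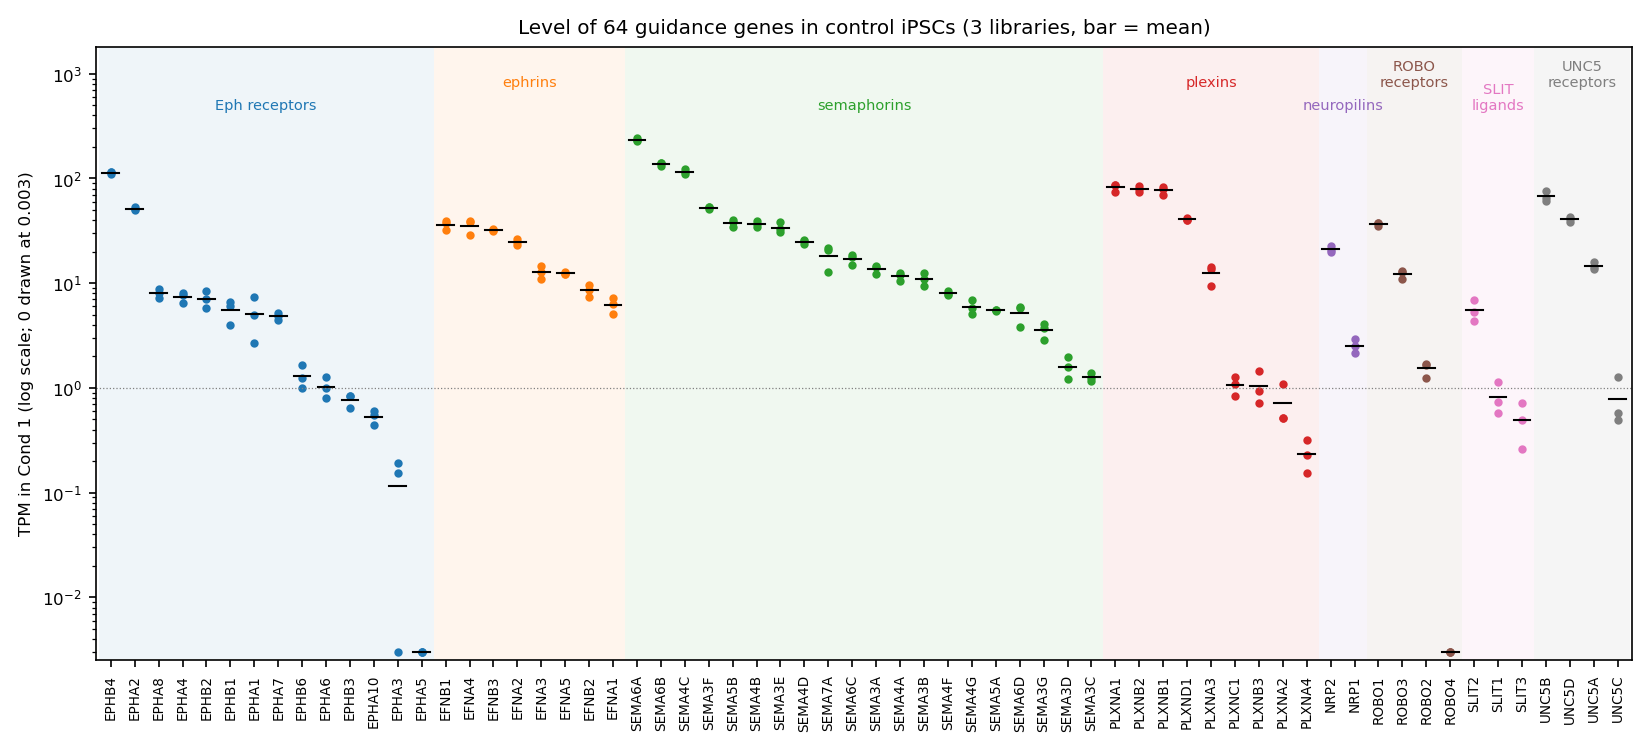
Level of each of the 64 guidance genes in the 3 control libraries, grouped by family and ordered by mean. The vertical axis is TPM on a log scale, points are libraries, bars are means, and the dotted line marks 1 TPM. SEMA6A at 234 TPM heads the plot, every family except the SLIT ligands has a member above 20 TPM, and 54 members have a mean of at least 1 TPM.

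Summed over a family, the ephrins and the neuropilins stood highest against the control in Cond 2 and Cond 3. The 8 ephrins summed to 169 ± 4.95 TPM in Cond 1, 264 ± 4.67 in Cond 2, 266 ± 7.63 in Cond 3 and 158 ± 7.40 in Cond 4. Every library of Cond 2 and Cond 3 lay above every library of Cond 1 and Cond 4, and Cond 2 and Cond 3 overlapped each other. The 2 neuropilins summed to 23.6 ± 1.24, 39.8 ± 3.98, 39.2 ± 2.68 and 22.1 ± 1.79 TPM in the same order. Eph receptors were highest in Cond 2, at 280 ± 15.5 TPM against 206 ± 7.24 in Cond 1, and SLIT ligands were lowest there, at 3.52 ± 0.301 against 6.85 ± 1.44. The UNC5 receptors had their lowest sum in Cond 3, at 100.1 ± 2.78 TPM against 124 ± 11.2 in Cond 1. These sums are descriptions with no test. On the TPM scale, genes with at least 1 TPM in all libraries had a median difference of 0.085 (log2) between Cond 2 and Cond 1, which the normalization of the counts brings close to 0.

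In Cond 2 against Cond 1, which asks how heated medium differed from the control, 15 of 61 tested members were higher (24.6%) and 10 were lower (16.4%). Of all genes tested, 10.8% were higher and 10.1% lower. With limma on log2(TPM + 1), 14 of 63 members were higher and 6 lower, and at a pseudocount of 0.1 the counts were 13 and 5, beside 6.08% and 2.50% of all genes in the former and 5.90% and 2.63% in the latter. A fold change above 2 as well was found for 10 members, 6 of them higher, beside 4.34% of all genes. In Cond 3 against Cond 1, which compares serum-containing medium with the control, 26 members were higher (42.6%) and 10 were lower (16.4%), beside 19.5% and 18.8% of all genes. With a fold change above 2 there were 8, of which 5 were higher, beside 8.16% of all genes. Among the 5 is EPHA3, which passed the filter on low counts mainly through the Cond 3 libraries. The median log2 fold change over the tested members was 0.10 in Cond 2 and 0.30 in Cond 3, beside 0.00018 and -0.0064 over all genes. Cond 2 and Cond 3 share the 3 control libraries, so their values are given side by side only.

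By family, the calls in Cond 2 were 4 higher and 0 lower among 8 ephrins, 3 higher and 2 lower among 13 Eph receptors, and 4 in each direction among 20 semaphorins. Both neuropilins were higher, and of 8 tested plexins PLXND1 alone was called, lower. In Cond 3, 5 of 8 ephrins were higher and none lower, 5 of 13 Eph receptors were higher and 2 lower, and 12 of 20 semaphorins were higher and 2 lower. No plexin with counts was called in Cond 3 by edgeR, while 1 had an unadjusted p under 0.05, and DESeq2 and limma called none of these 8 either. Of the 4 UNC5 receptors, 1 was higher and 3 lower in Cond 3. The shares over all genes tested were 10.8% higher and 10.1% lower in Cond 2, and 19.5% and 18.8% in Cond 3. The lower calls among Eph receptors, 15.4% in both, lie near these shares, and those among semaphorins in Cond 3 were 10%.

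**Figure D2:**
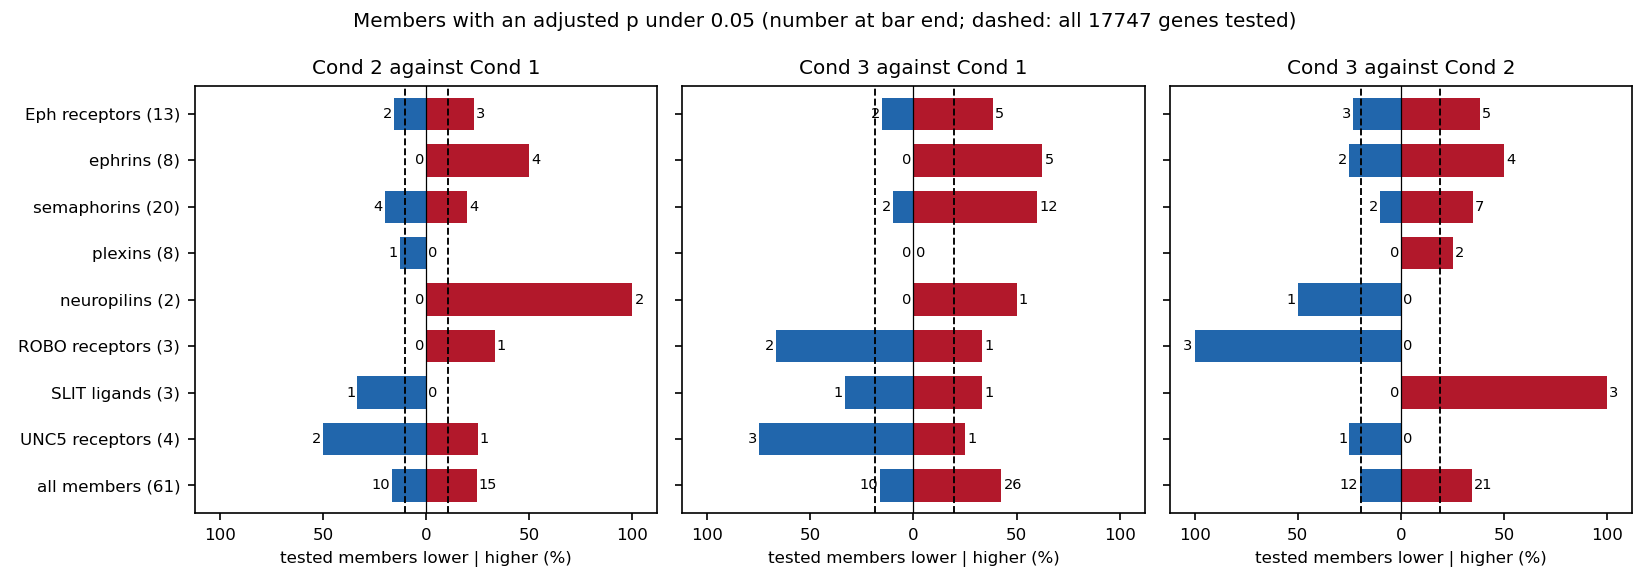
Percent of the tested members of each family called higher (right) or lower (left) in 3 comparisons, with the number of tested members in brackets and the number called at the bar end. Dashed lines give the percent over all 17747 genes tested. In Cond 3 against Cond 1 the bar of the semaphorins reaches 60% higher, and the ephrins have no lower call in either comparison with Cond 1.

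**Figure D3:**
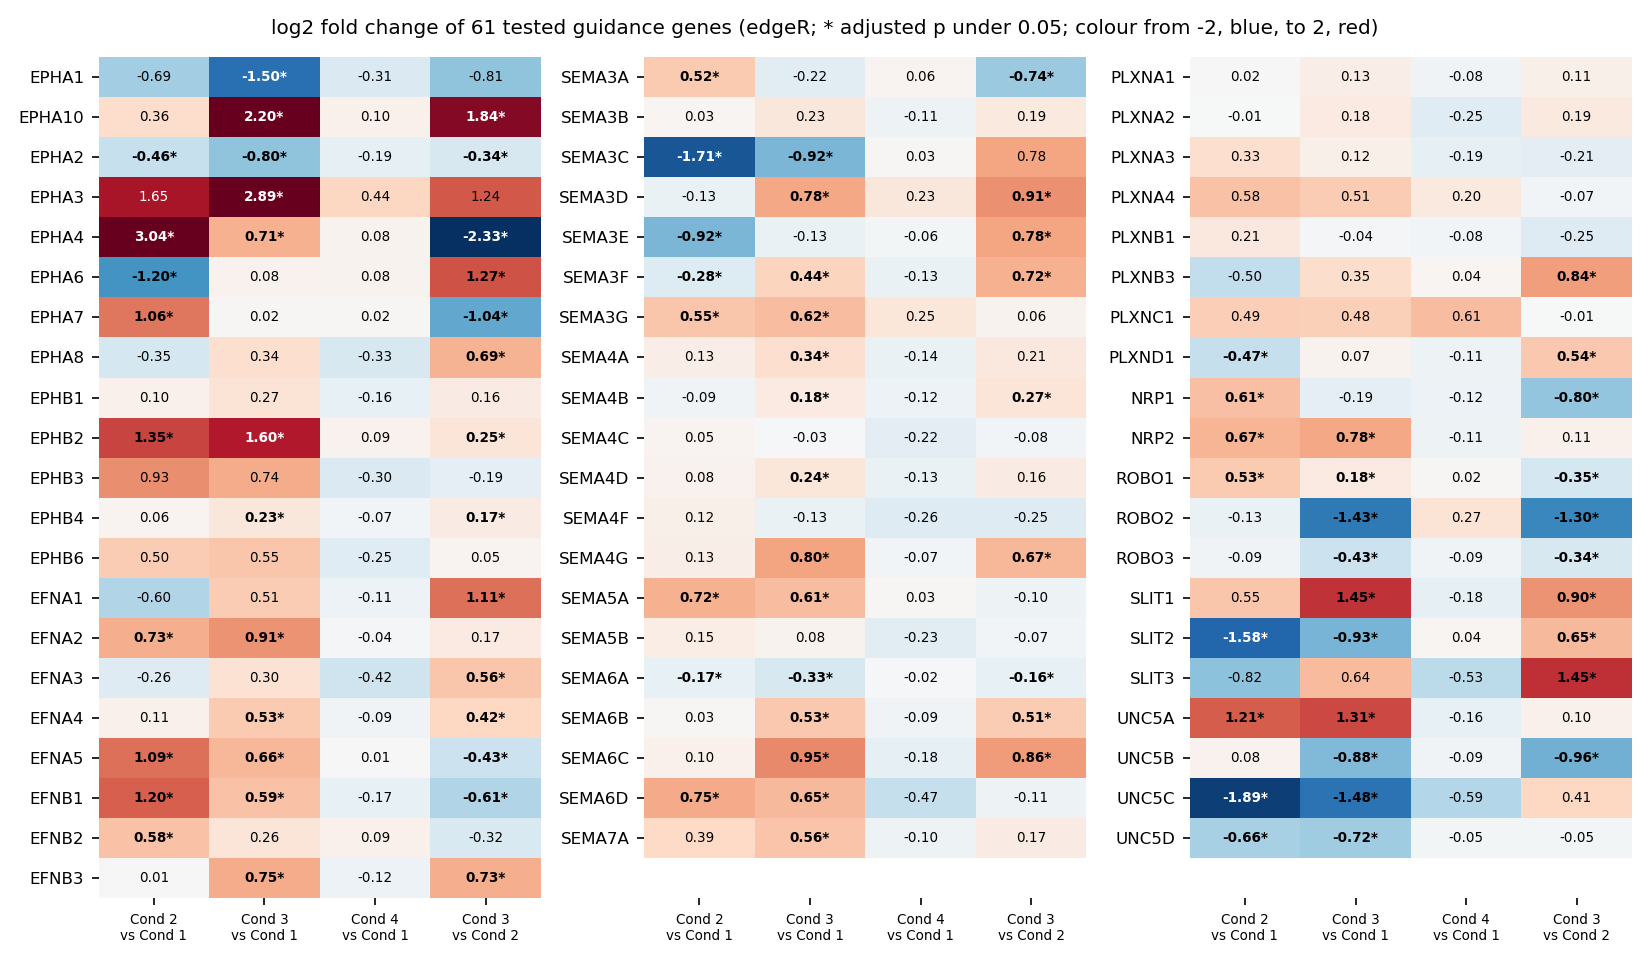
Log2 fold change of each of the 61 tested members in the 4 comparisons, from edgeR. Red is higher and blue is lower in the condition named first, and a star marks an adjusted p under 0.05. EPHA4 in Cond 2 has 3.04, and the column of Cond 4 holds no star.

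The promoters of 5 members whose values follow are shown here: EPHA4, EFNB1, EPHB2 and UNC5A, which rose in both media, and SLIT2, which fell in both. Each sequence is the 250 bases before a RefSeq start on GRCh38.p14, read 5′ to 3′ on the strand of the gene. Capitals mark the letters of a GC box (GGGCGG, read CCGCCC on the other strand), a CCAAT box (CCAAT, read ATTGG on the other strand), a TATA box (TATAAA) or an E-box (CACGTG). EPHA4 has 2 starts in the table, and the upstream window of the outer start at chr2:221574203-221574452 (minus strand) has a GC content of 43.2%, while the inner window at chr2:221572305-221572554 has 78.0%. EPHB2 has 2 starts as well, with windows at chr1:22710588-22710837 and chr1:22710589-22710838, and the former is shown. The windows of EFNB1 (chrX:68828771-68829020, plus strand), EPHB2 (chr1:22710588-22710837, plus), UNC5A (chr5:176810309-176810558, plus) and SLIT2 (chr4:20251655-20251904, plus) have 63.6%, 84.8%, 81.2% and 77.2%.
EPHA4 outer start: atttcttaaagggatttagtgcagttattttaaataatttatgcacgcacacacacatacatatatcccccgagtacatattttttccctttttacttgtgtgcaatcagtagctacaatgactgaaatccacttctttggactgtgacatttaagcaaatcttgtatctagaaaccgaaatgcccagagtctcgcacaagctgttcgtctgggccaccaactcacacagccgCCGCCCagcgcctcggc
EPHA4 inner start: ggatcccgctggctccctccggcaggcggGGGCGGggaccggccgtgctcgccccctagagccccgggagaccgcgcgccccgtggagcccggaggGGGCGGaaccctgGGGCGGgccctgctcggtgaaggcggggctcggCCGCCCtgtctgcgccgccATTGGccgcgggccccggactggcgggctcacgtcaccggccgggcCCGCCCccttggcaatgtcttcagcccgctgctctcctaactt
EFNB1: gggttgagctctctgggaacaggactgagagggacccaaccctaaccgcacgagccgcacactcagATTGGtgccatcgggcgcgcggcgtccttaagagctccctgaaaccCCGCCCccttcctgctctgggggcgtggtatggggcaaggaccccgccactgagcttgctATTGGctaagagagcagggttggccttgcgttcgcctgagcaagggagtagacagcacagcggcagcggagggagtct
EPHB2: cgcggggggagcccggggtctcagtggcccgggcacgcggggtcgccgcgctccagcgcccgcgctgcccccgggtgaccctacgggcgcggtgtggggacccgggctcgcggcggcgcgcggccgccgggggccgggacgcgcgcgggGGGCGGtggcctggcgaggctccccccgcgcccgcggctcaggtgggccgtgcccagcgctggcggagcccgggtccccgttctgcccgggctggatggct
UNC5A: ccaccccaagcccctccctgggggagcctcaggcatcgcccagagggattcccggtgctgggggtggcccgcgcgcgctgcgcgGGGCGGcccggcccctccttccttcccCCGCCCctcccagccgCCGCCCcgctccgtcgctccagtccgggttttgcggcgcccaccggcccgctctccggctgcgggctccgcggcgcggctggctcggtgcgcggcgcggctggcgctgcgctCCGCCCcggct
SLIT2: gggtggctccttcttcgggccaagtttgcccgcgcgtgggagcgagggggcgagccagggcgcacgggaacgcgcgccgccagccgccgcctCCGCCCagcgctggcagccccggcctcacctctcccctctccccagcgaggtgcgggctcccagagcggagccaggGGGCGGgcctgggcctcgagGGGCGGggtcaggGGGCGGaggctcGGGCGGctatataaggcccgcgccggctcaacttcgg

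None of the 6 windows shown holds the exact letters TATAAA or CACGTG. The SLIT2 window holds the similar letters TATATAAG near its end, which the search for TATAAA does not count. The inner window of EPHA4 and that of SLIT2 hold 5 GC boxes each, UNC5A holds 4, and the other 3 windows hold 1 each. EFNB1 has 2 CCAAT boxes and the inner EPHA4 window has 1. Over all 35116 promoters of the table, 42.6% hold a GC box, 32.0% a CCAAT box, 10.7% a TATA box and 6.34% an E-box, on either strand. Of the 87 promoters of the members, 62 hold a GC box, 26 a CCAAT box, 3 a TATA box and 4 an E-box. The median GC content was 65.2% over the promoters of the members and 58.0% over all. A match of letters is a description of the window and not evidence of a bound factor.

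Among the Eph receptors, EPHA4 had the largest change of any member. EPHA4 (ENSG00000116106, chr2:221418027-221574202, minus strand, GRCh38) is a receptor for ephrins of both classes. Its level was 7.64, 8.05 and 6.42 TPM in the libraries of Cond 1 and 71.7, 68.7 and 52.0 TPM in Cond 2. In Cond 3 it was 13.5, 11.5 and 11.7 TPM, and in Cond 4 it was 6.97, 6.83 and 9.59 TPM. All libraries of Cond 2 were above all others, Cond 3 lay between them and the control, and Cond 4 overlapped the control. EPHA4 rose in Cond 2 with a log2 fold change of 3.04 (SE 0.132, adjusted p = 7.77e-14, edgeR), or 8.24-fold. The rise in Cond 3 was smaller, with a log2 fold change of 0.71 (SE 0.135, adjusted p = 2.13e-04, edgeR). Between the media themselves, Cond 3 was below Cond 2 by a log2 fold change of -2.33 (SE 0.125, adjusted p = 1.88e-12, edgeR).

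EPHB2 (chr1:22710839-22921500, plus strand), a receptor of B-class ephrins known from cell positioning in epithelia, was raised in both media. It had 7.01, 8.41 and 5.84 TPM in Cond 1, and 7.29, 7.92 and 7.52 TPM in Cond 4. Cond 2 gave 18.8, 20.2 and 18.2 TPM and Cond 3 gave 23.3, 20.7 and 21.5 TPM. No library of Cond 2 or Cond 3 overlapped the control. The log2 fold change was 1.35 in Cond 2 (SE 0.0973, adjusted p = 4.57e-10, edgeR) and 1.60 in Cond 3 (SE 0.0970, adjusted p = 1.41e-11, edgeR). Cond 3 was above Cond 2 by 0.25 (log2; SE 0.0912, adjusted p = 0.0317, edgeR). This call was lost with limma on TPM, without Cond 2 replicate 3 (0.21, adjusted p = 0.111), without Cond 3 replicate 1 (0.21, adjusted p = 0.136) and without Cond 3 replicate 3 (0.26, adjusted p = 0.0677).

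EPHA7, a receptor of A-class ephrins known from the developing brain, had 4.42, 4.82 and 5.21 TPM in Cond 1 and 12.1, 11.4 and 8.56 TPM in Cond 2. Cond 3, at 4.63, 5.18 and 5.15 TPM, and Cond 4, at 4.64, 4.77 and 5.37 TPM, overlapped the control. It rose in Cond 2 with a log2 fold change of 1.06 (SE 0.140, adjusted p = 4.69e-06, edgeR). In Cond 3 against Cond 1 the log2 fold change was 0.02, with a 95% interval of -0.28 to 0.32. The difference between Cond 3 and Cond 2 was -1.04 (log2; SE 0.139, adjusted p = 2.87e-06, edgeR).

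EPHA10, a receptor without kinase activity, was low in the control at 0.557, 0.598 and 0.440 TPM. It had 0.898, 0.966 and 0.280 TPM in Cond 2, which overlapped the control, and 2.12, 2.67 and 2.68 TPM in Cond 3, which did not. Cond 4 had 0.648, 0.526 and 0.544 TPM. It rose in Cond 3 with a log2 fold change of 2.2 (SE 0.334, adjusted p = 1.57e-05, edgeR), or 4.60-fold, and Cond 3 was above Cond 2 by 1.84 (log2; SE 0.323, adjusted p = 9.21e-05, edgeR).

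Less firm were EPHA1 and EPHA6. EPHA1 had 7.46, 4.96 and 2.69 TPM in Cond 1, 4.63, 3.69 and 1.46 in Cond 2, 2.12, 1.87 and 1.40 in Cond 3 and 7.56, 3.24 and 1.57 in Cond 4. Libraries of a condition differed widely except in Cond 3. EPHA1 fell in Cond 3 with a log2 fold change of -1.5 (SE 0.441, adjusted p = 0.00943, edgeR), and the call was lost without Cond 1 replicate 1 (-1.11, adjusted p = 0.0846) and with limma on TPM. The gene overlaps ZYX and EPHA1-AS1 on the other strand, and the strand setting of the counting is not given in the sources used here. EPHA6 had 0.808, 1.28 and 1.00 TPM in Cond 1, 0.315, 0.640 and 0.462 in Cond 2, 0.830, 1.74 and 0.749 in Cond 3 and 1.14, 0.929 and 1.20 in Cond 4. Its fall in Cond 2, with a log2 fold change of -1.20 (SE 0.397, adjusted p = 0.0343, edgeR), rests on 10 to 23 counts a library against 28 to 38 and was not called by limma on TPM.

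The EPHA6 call in Cond 2 was lost without Cond 1 replicate 2 (-1.02, adjusted p = 0.119) or replicate 3 (-1.20, adjusted p = 0.0710), and without Cond 2 replicate 1 (-0.99, adjusted p = 0.119) or replicate 3 (-1.17, adjusted p = 0.0768). Cond 3 was above Cond 2 for EPHA6 by 1.27 (log2; SE 0.394, adjusted p = 0.0132, edgeR). This was lost without Cond 2 replicate 1 (1.07, adjusted p = 0.0566) or Cond 3 replicate 2 (0.79, adjusted p = 0.154).

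EPHB4, the Eph receptor with the highest level, is known as the partner of ephrin-B2 on venous endothelium. It had 115, 115 and 110 TPM in Cond 1, 122, 130 and 123 in Cond 2, 140, 132 and 133 in Cond 3 and 110, 104 and 113 in Cond 4. It rose in Cond 3 with a log2 fold change of 0.23 (SE 0.0511, adjusted p = 0.00121, edgeR), and in Cond 2 the value was 0.06, with a 95% interval of -0.05 to 0.16. Of the other members of the family, EPHA2, a receptor known from epithelial junctions, fell in both, from a mean of 51.4 TPM to 39.7 in Cond 2 and 30.1 in Cond 3. EPHA3 was called higher in Cond 3, at a mean of 0.888 TPM against 0.116 in Cond 1, from 30 to 36 counts a library against 0 to 6. It reached the level of the filter in 3 libraries of Cond 3, 1 of Cond 2 and 0 of Cond 1 and Cond 4, so it entered the test only through the condition where it is high.

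All ephrin calls against the control were rises. EFNB1 (chrX:68829021-68842160, plus strand), the transmembrane ligand of EPHB receptors, had 31.9, 37.6 and 39.0 TPM in Cond 1 and 92.4, 92.3 and 79.1 TPM in Cond 2. It had 57.7, 53.0 and 55.9 TPM in Cond 3 and 31.9, 34.1 and 31.3 TPM in Cond 4. Cond 2 lay above Cond 3, and Cond 3 above the control, with no overlap. The log2 fold change was 1.20 in Cond 2 (SE 0.0902, adjusted p = 9.12e-10, edgeR) and 0.59 in Cond 3 (SE 0.0908, adjusted p = 1.88e-05, edgeR), and Cond 3 was below Cond 2 by -0.61 (SE 0.0876, adjusted p = 8.59e-06, edgeR).

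EFNA5, a lipid-anchored ligand of EPHA receptors, had 12.1, 12.2 and 12.9 TPM in Cond 1, 27.2, 29.9 and 27.3 in Cond 2, 21.5, 19.9 and 18.6 in Cond 3 and 10.0, 13.7 and 14.1 in Cond 4. Conditions followed the order seen for EFNB1, without overlap between Cond 2, Cond 3 and the control. EFNA5 rose with a log2 fold change of 1.09 in Cond 2 (SE 0.108, adjusted p = 6.73e-08, edgeR) and 0.66 in Cond 3 (SE 0.108, adjusted p = 4.01e-05, edgeR). EFNA1, another ligand of EPHA receptors, had 7.29, 6.26 and 5.12 TPM in Cond 1, 4.30, 4.61 and 4.12 in Cond 2, 9.50, 10.0 and 7.48 in Cond 3 and 7.22, 5.04 and 5.21 in Cond 4. Cond 3 was above Cond 2 by a log2 fold change of 1.11 (SE 0.228, adjusted p = 4.77e-04, edgeR). Neither medium passed the test against the control for EFNA1, with -0.60 in Cond 2 (95% interval -1.08 to -0.12, adjusted p = 0.0711, edgeR) and 0.51 in Cond 3 (95% interval 0.05 to 0.96, adjusted p = 0.0740, edgeR).

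Of the other ephrins, EFNA2 rose in both media, from a mean of 24.8 TPM to 43.7 in Cond 2 and 47.3 in Cond 3. EFNB2, the partner of EPHB4, rose in Cond 2 from 8.53 to 13.6 TPM, a call lost without Cond 1 replicate 2 (0.49, adjusted p = 0.0570) or Cond 2 replicate 1 (0.45, adjusted p = 0.0603). EFNB3 and EFNA4 rose in Cond 3, from 32.2 to 55.1 TPM and from 35.5 to 52.2 TPM. EFNA3 and EFNA4 both overlap the readthrough gene EFNA4-EFNA3, so the split of reads between them is uncertain.

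**Figure D4:**
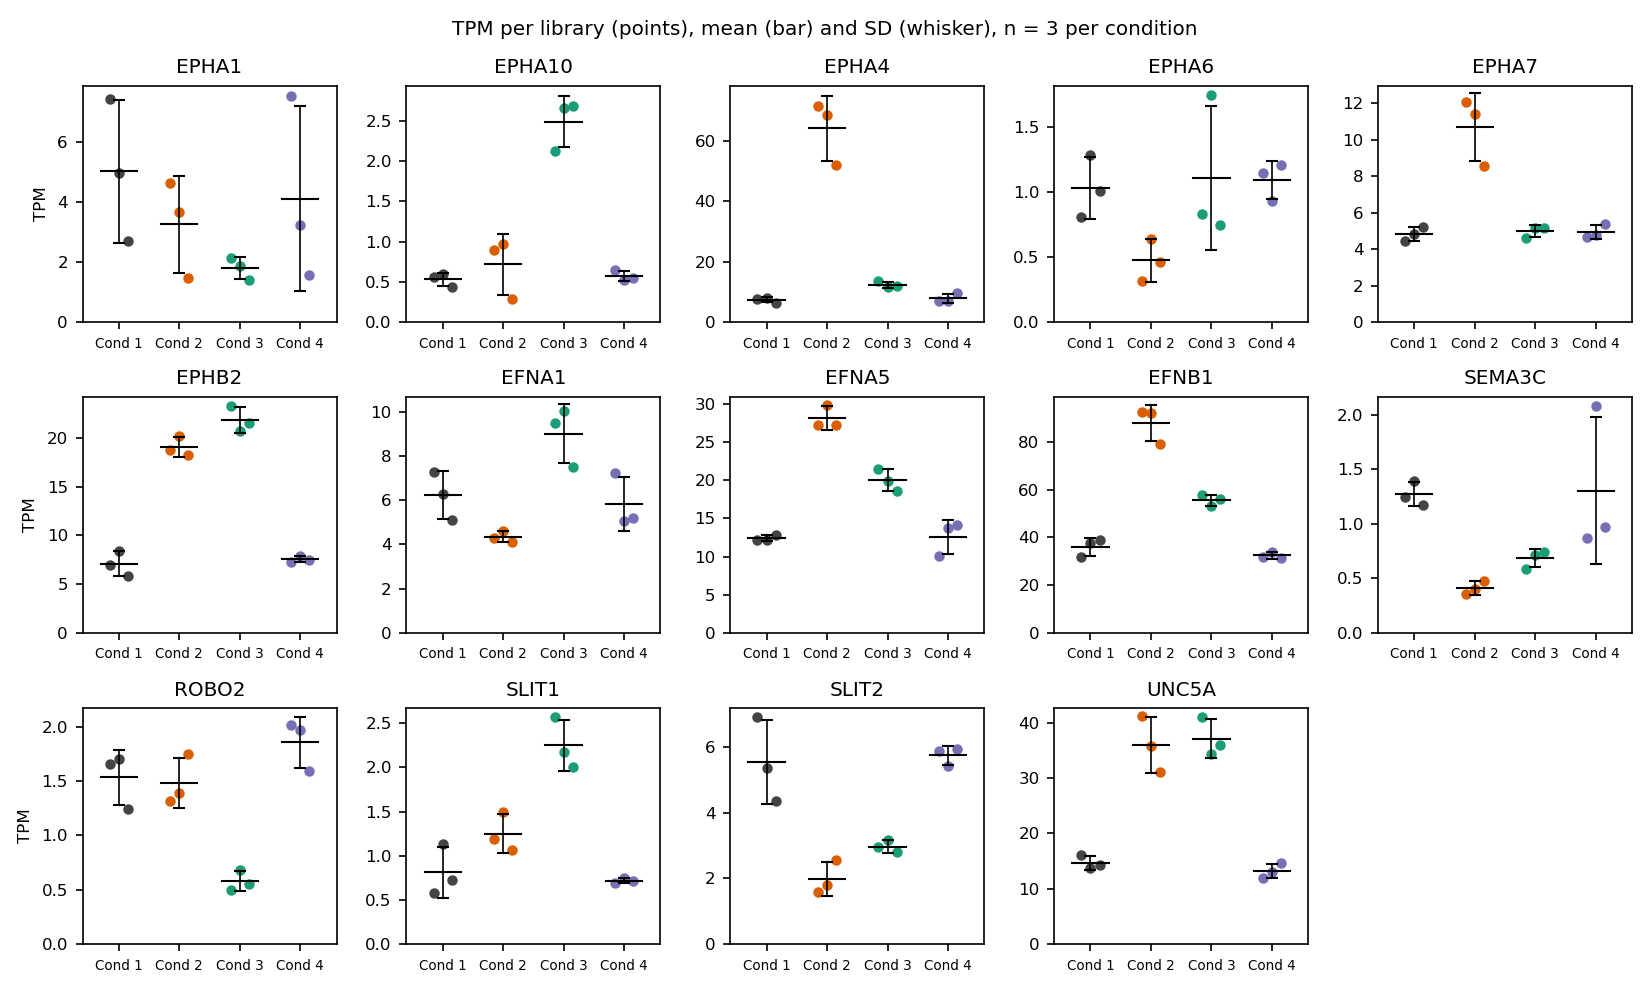
TPM in each library of the 14 members with an adjusted p under 0.05, a fold change above 2 and a mean of at least 1 TPM in a comparison. Points are libraries, bars are means and whiskers are the SD of 3 libraries, and each panel has its own axis from 0. EPHA4 and EFNB1 stand highest in Cond 2, EPHB2 and UNC5A stand high in Cond 2 and Cond 3, and EPHA10 and SLIT1 are highest in Cond 3.

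Semaphorin calls in Cond 3 were mostly rises of less than 2-fold. SEMA6A, the highest member, went the other way, with 245, 231 and 228 TPM in Cond 1, 213, 224 and 227 in Cond 2, 218, 173 and 180 in Cond 3 and 232, 231 and 234 in Cond 4. It fell in Cond 3 with a log2 fold change of -0.33 (SE 0.0596, adjusted p = 1.25e-04, edgeR). In Cond 2 the value was -0.17 (SE 0.0596, adjusted p = 0.0460, edgeR), a call lost when any of the 6 libraries was left out (-0.18 to -0.14). The related SEMA6B and SEMA6C rose in Cond 3, from means of 138 to 203 TPM and of 17.2 to 34.0 TPM. SEMA3F, a secreted ligand that binds NRP2, was called in opposite directions, at 45.9 TPM in Cond 2 and 72.5 in Cond 3 against 52.5 in Cond 1. SEMA3A, a secreted ligand of NRP1 that repels axons, rose in Cond 2 from 13.6 to 20.8 TPM, while SEMA3E, which binds PLXND1, fell there from 33.9 to 19.2 TPM. SEMA5A and SEMA6D rose in both media, from 5.54 to 9.68 and 8.63 TPM and from 5.20 to 9.31 and 8.31 TPM.

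SEMA3C, a secreted ligand known from the cardiac outflow tract, was near 1 TPM. It had 1.25, 1.39 and 1.17 TPM in Cond 1, 0.357, 0.402 and 0.476 in Cond 2, 0.589, 0.719 and 0.741 in Cond 3 and 0.866, 2.08 and 0.970 in Cond 4. Cond 2 libraries held 11 to 14 counts against 40 to 42 in the control and did not overlap it. SEMA3C fell in Cond 2 with a log2 fold change of -1.71 (SE 0.388, adjusted p = 0.00236, edgeR), which limma on TPM did not call. In Cond 3 it was -0.92 (SE 0.364, adjusted p = 0.0492, edgeR), a call lost when any of the 6 libraries was left out (-0.99 to -0.82).

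The receptors of the semaphorins had few calls among the plexins. PLXNA1, the plexin with the highest level and a receptor for class 3 and class 6 semaphorins, had 86.9, 75.0 and 86.7 TPM in Cond 1, 93.2, 86.9 and 86.6 in Cond 2, 94.1, 90.6 and 92.1 in Cond 3 and 80.3, 77.2 and 79.5 in Cond 4. Its log2 fold change was 0.02 in Cond 2 (95% interval -0.11 to 0.14) and 0.13 in Cond 3 (95% interval 0.00 to 0.25), without a call. PLXNB2, a receptor for class 4 semaphorins, had 84.4, 73.7 and 79.6 TPM in Cond 1, 75.6, 70.7 and 76.5 in Cond 2, 122, 119 and 124 in Cond 3 and 79.4, 75.3 and 73.1 in Cond 4. All Cond 3 libraries were above all others. With no counts, PLXNB2 was tested with limma on log2(TPM + 1) over 35717 genes. It rose in Cond 3 by 0.61 on that scale (SE 0.0543, adjusted p = 4.25e-05, limma) and was above Cond 2 by 0.70 (SE 0.0543, adjusted p = 1.96e-05, limma). In Cond 2 against Cond 1 it was -0.091 (95% interval -0.21 to 0.030, adjusted p = 0.449, limma). PLXND1 fell in Cond 2, from 40.9 to 31.3 TPM.

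NRP2, the neuropilin with the highest level, had 20.0, 20.6 and 22.5 TPM in Cond 1, 32.3, 35.2 and 39.6 in Cond 2, 39.7, 36.6 and 34.4 in Cond 3 and 19.5, 18.6 and 21.1 in Cond 4. Both media lay above the control without overlap. NRP2 rose with a log2 fold change of 0.67 in Cond 2 (SE 0.0736, adjusted p = 3.42e-07, edgeR) and 0.78 in Cond 3 (SE 0.0735, adjusted p = 1.86e-08, edgeR). NRP1 rose in Cond 2 only among the comparisons with the control, from 2.54 to 4.11 TPM, and its difference between Cond 3 and Cond 2 was also called, lower in Cond 3. The Cond 2 call was lost without Cond 1 replicate 2 (0.50, adjusted p = 0.0866) or replicate 3 (0.61, adjusted p = 0.0526), or Cond 2 replicate 3 (0.55, adjusted p = 0.0577).

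In Cond 3 against Cond 1, both the SLIT ligands and the ROBO receptors had calls in each direction. SLIT2 (chr4:20251905-20620561, plus strand), the SLIT with the highest level, had 6.92, 5.36 and 4.36 TPM in Cond 1 and 5.88, 5.42 and 5.95 in Cond 4. It had 1.57, 1.79 and 2.57 TPM in Cond 2 and 2.95, 3.17 and 2.79 in Cond 3, all below the control. SLIT2 fell with a log2 fold change of -1.58 in Cond 2 (SE 0.169, adjusted p = 2.56e-07, edgeR) and -0.93 in Cond 3 (SE 0.161, adjusted p = 8.17e-05, edgeR). Cond 3 was above Cond 2 by 0.65 (log2; SE 0.174, adjusted p = 0.00469, edgeR), which limma on TPM did not call. SLIT1 had 0.576, 1.14 and 0.728 TPM in Cond 1, 1.19, 1.49 and 1.07 in Cond 2, 2.57, 2.18 and 2.00 in Cond 3 and 0.693, 0.746 and 0.708 in Cond 4. It rose in Cond 3 with a log2 fold change of 1.45 (SE 0.256, adjusted p = 9.53e-05, edgeR).

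ROBO1, the main receptor of SLIT ligands in these cells by level, had 37.7, 37.8 and 35.5 TPM in Cond 1, 54.0, 61.3 and 54.6 in Cond 2, 42.4, 44.3 and 41.4 in Cond 3 and 36.8, 40.1 and 36.7 in Cond 4. It rose in Cond 2 with a log2 fold change of 0.53 (SE 0.0596, adjusted p = 5.25e-07, edgeR). In Cond 3 it was 0.18 (SE 0.0598, adjusted p = 0.0201, edgeR), lost without Cond 1 replicate 3 (0.16, adjusted p = 0.0820) or Cond 3 replicate 2 (0.15, adjusted p = 0.0893). ROBO2 had 1.66, 1.70 and 1.24 TPM in Cond 1, 1.32, 1.39 and 1.74 in Cond 2, 0.500, 0.680 and 0.554 in Cond 3 and 2.02, 1.96 and 1.59 in Cond 4. Only the Cond 3 libraries stood apart. ROBO2 fell in Cond 3 with a log2 fold change of -1.43 (SE 0.20, adjusted p = 5.32e-06, edgeR), and it was below Cond 2 by -1.30 (SE 0.201, adjusted p = 1.96e-05, edgeR). ROBO3 fell in Cond 3 as well, from a mean of 12.3 to 9.30 TPM.

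The UNC5 receptors split into a member that rose and members that fell. UNC5A (chr5:176810519-176880898, plus strand) had 16.1, 13.6 and 14.2 TPM in Cond 1 and 12, 13.0 and 14.6 in Cond 4. It had 41.2, 35.9 and 31.0 TPM in Cond 2 and 41.1, 34.3 and 36.0 in Cond 3, above every library of the other conditions. UNC5A rose with a log2 fold change of 1.21 in Cond 2 (SE 0.115, adjusted p = 3.99e-08, edgeR) and 1.31 in Cond 3 (SE 0.115, adjusted p = 5.83e-09, edgeR). Cond 3 differed from Cond 2 by 0.10, with a 95% interval of -0.13 to 0.32. UNC5A overlaps HK3 on the other strand.

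UNC5B, the UNC5 receptor with the highest level and known from vessel branching, had 76.0, 61.5 and 64.6 TPM in Cond 1, 74.4, 76.2 and 76.0 in Cond 2, 37.1, 37.0 and 37.8 in Cond 3 and 66.1, 60.1 and 65.9 in Cond 4. It fell in Cond 3 with a log2 fold change of -0.88 (SE 0.0679, adjusted p = 8.19e-10, edgeR). In Cond 2 it was 0.08, with a 95% interval of -0.06 to 0.22. UNC5D fell in both media, from a mean of 40.9 TPM to 27.4 in Cond 2 and 25.4 in Cond 3. UNC5C was also called lower in both, from 0.784 TPM to 0.223 and 0.291, and these calls were lost without Cond 1 replicate 3 (-1.32, adjusted p = 0.126 in Cond 2 and -0.91, adjusted p = 0.231 in Cond 3), the latter also without Cond 3 replicate 1 (-1.01, adjusted p = 0.123).

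Compared directly, Cond 3 was above Cond 2 for 21 of 61 members (34.4%) and below for 12 (19.7%), beside 19.0% and 19.2% of all genes. With limma on log2(TPM + 1), 11 of 63 members were called in each direction, beside 6.66% of all genes higher and 9.24% lower. At a pseudocount of 0.1 the counts were the same, beside 6.32% and 9.21% of all genes. With a pseudocount of 1 and 1 TPM required in all libraries, limma called 13 of 47 members higher and 11 lower, beside 15.8% and 26%. A fold change above 2 was found for 7, of which 4 were higher, beside 8.77% of all genes. The 7 were EPHA10, SLIT3, EPHA6 and EFNA1, higher in Cond 3, and EPHA4, ROBO2 and EPHA7, lower in Cond 3. All 3 SLIT ligands were called higher and all 3 tested ROBO receptors lower in Cond 3 than in Cond 2 by edgeR. With limma on log2(TPM + 1) the 3 ROBO receptors were called and no SLIT ligand was, with adjusted p = 0.0798 for SLIT1, 0.148 for SLIT2 and 0.109 for SLIT3, and at a pseudocount of 0.1 none of these ligands was called either. SLIT3, at 0.778 TPM in Cond 3 and 0.292 in Cond 2, lost its call without Cond 2 replicate 3 (1.08, adjusted p = 0.0528) or Cond 3 replicate 1 (1.28, adjusted p = 0.0517). For ROBO3 the call was lost without Cond 2 replicate 1 (-0.21, adjusted p = 0.176), Cond 3 replicate 1 (-0.29, adjusted p = 0.104) or Cond 3 replicate 2 (-0.34, adjusted p = 0.0612).

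Cond 4 against Cond 1, which asks whether pipetting at passage left a difference on Day 5, gave 0 calls among the 61 members with edgeR, beside 0.0225% of all genes higher, 0.00563% lower and 0.0169% with a fold change above 2. An unadjusted p under 0.05 was found for 6 members: EPHA8, EFNA3, SEMA4C, SEMA5B and SEMA6D with lower and PLXNC1 with higher values in Cond 4. DESeq2 and limma also gave 0 calls. The 95% interval of the log2 fold change lay within a 2-fold change either way for 54 of the 61 members, and reached past it for the other 7. The median over the members was -0.087, beside 0.00033 over all genes.

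Other genes of these pathways were counted from 3 lists. For each list the share of all genes tested that was called is 10.8% higher and 10.1% lower in Cond 2, and 19.5% and 18.8% in Cond 3. Of 11 tested netrin and RGM ligands and receptors, 3 were higher and 0 lower in Cond 2, and 5 higher and 2 lower in Cond 3, with a median log2 fold change of 0.12 and 0.50. The 2 lower calls in Cond 3 are near the share over all genes. DCC, the attractive netrin receptor, stayed at a mean of 0.114 TPM or less in each condition. RGMA, a repulsive ligand of neogenin, had a mean of 26.1 TPM in Cond 1, 46.5 in Cond 2 and 37.5 in Cond 3 and rose in both, with log2 fold changes of 0.75 and 0.50 (adjusted p = 2.05e-08 and 4.29e-06, edgeR). RGMB fell in Cond 3, from 11 to 6.80 TPM (log2 fold change -0.72, adjusted p = 3.77e-05, edgeR), and NTNG2 rose there from 0.350 to 1.38 TPM (1.92, adjusted p = 0.00411, edgeR, lost with limma on log2(TPM + 0.1)). NTN3 was called higher in both, from 0.626 to 2.09 and 1.95 TPM (1.64 and 1.60, adjusted p = 0.0405 and 0.0277, edgeR), but the call was lost in each of 6 fits without a library in Cond 2 (1.43 to 2.01) and in 4 of 6 in Cond 3 (1.38 to 1.97).

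Among 12 tested co-receptors and sheddases, 2 were higher and 1 lower in Cond 2, and 7 higher and 0 lower in Cond 3, with medians of -0.036 and 0.58. The counts in Cond 2 are near the shares over all genes. FLRT3, a membrane protein that binds UNC5 and ROBO receptors, rose in Cond 2 from 1.12 to 14.3 TPM (log2 fold change 3.59, SE 0.202, adjusted p = 6.85e-12, edgeR), and in Cond 3 to 1.97 TPM (0.79, adjusted p = 0.00674, edgeR, lost with limma on log2(TPM + 1)). L1CAM, an adhesion molecule and partner of NRP1, fell in Cond 2 from 26.5 to 13.6 TPM (-1.05, adjusted p = 3.41e-07, edgeR). NRCAM rose in Cond 3 from 3.98 to 8.09 TPM (0.99, adjusted p = 6.57e-06, edgeR). It was also called in Cond 2, at 6.24 TPM, except in 1 of 6 fits without a library (highest adjusted p = 0.0590). CNTN2 rose in Cond 3 from 0.465 to 1.34 TPM (1.48, adjusted p = 1.12e-04, edgeR, lost with limma on log2(TPM + 0.1)).

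Of 34 tested cytoplasmic effectors, 13 were higher and 2 lower in Cond 2, and 13 higher and 4 lower in Cond 3, with medians of 0.20 and 0.16. DPYSL5, a collapsin response mediator that acts on microtubules, rose from 8.25 TPM to 46.8 in Cond 2 and 38.5 in Cond 3 (log2 fold change 2.42 and 2.2, adjusted p = 4.45e-14 and 1.16e-13, edgeR). MICAL2, of a family of plexin effectors that oxidize actin, rose in Cond 3 from 0.673 to 1.33 TPM (0.95, adjusted p = 6.18e-04, edgeR, lost with limma on TPM). PAK1, a kinase that acts on the cytoskeleton, was chosen after its values were seen as a gene called in the other direction, and fell from 149 TPM to 102 in Cond 2 and 94.3 in Cond 3 (-0.63 and -0.69, adjusted p = 7.97e-09 and 1.07e-09, edgeR). In Cond 4 edgeR called no gene of the 3 lists, and 1 of them, ERBB2, had an unadjusted p under 0.05.

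Markers of pluripotent cells were present throughout, with all 10 of the list above 1 TPM in some library of each condition and summed levels of 9016 to 9284 TPM in Cond 1, 7692 to 8847 in Cond 2, 8855 to 9578 in Cond 3 and 8854 to 9349 in Cond 4. Behind these sums, single markers moved in both directions. Beside the counts of each marker list stand the shares over all genes tested. These are 10.8% higher and 10.1% lower in Cond 2, and 19.5% and 18.8% in Cond 3. Of the 10, 2 were higher and 5 lower in Cond 2, 4 were higher and 5 lower in Cond 3, and 0 were called in Cond 4, where 1 had an unadjusted p under 0.05 (edgeR). NANOG, a core pluripotency factor, fell from 45.9 TPM to 22.9 in Cond 2 and 10.5 in Cond 3, and TDGF1, a co-receptor of NODAL, fell from 1299 to 490 and 689 TPM. SOX2 rose from 908 to 1304 and 1263 TPM. Markers of other cell types moved with the media in some lists. The 8 markers of anterior neuroectoderm summed to 21.5 to 35.4 TPM in Cond 1, 471 to 769 in Cond 2, 59.8 to 78.4 in Cond 3 and 28.5 to 51.8 in Cond 4. Of 7 tested, 6 were higher in Cond 2 and 2 in Cond 3, while the defining genes PAX6 and SOX1 were under 1 TPM in every library. The 8 neuronal markers summed to 65.9 to 70.8 TPM in Cond 1, 79.0 to 88.8 in Cond 2, 125 to 129 in Cond 3 and 62.4 to 71.3 in Cond 4, with 7 of 8 higher in Cond 3 and 2 higher and 2 lower in Cond 2.

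The 7 fibroblast markers summed to 291 to 316 TPM in Cond 1, 203 to 253 in Cond 2 and 538 to 574 in Cond 3. Of 5 tested, 2 were lower in Cond 2 and 3 higher in Cond 3, with COL3A1, DCN and LUM under 1 TPM in every library. The 7 markers of surface ectoderm and amnion summed to 27.1 to 32.3 TPM in Cond 1 and 39.6 to 73.5 in Cond 2 and 32.8 to 38.1 in Cond 3. Of 6 tested, 4 were higher and 1 lower in Cond 2, and 3 higher and 1 lower in Cond 3. The lower one was GABRP in both, from 6.59 TPM to 0.293 and 2.57. The 7 endothelial markers summed to 30.3 to 33.0 TPM in Cond 1, 42.3 to 44.7 in Cond 2 and 55.1 to 62.6 in Cond 3, with 2 of 3 tested higher and 1 lower in Cond 2, 1 higher in Cond 3, and PECAM1 and CDH5 under 1 TPM throughout. The 8 neural crest markers summed to 163 to 164 TPM in Cond 1, 176 to 180 in Cond 2 and 154 to 157 in Cond 3. Of 4 tested, 2 were higher and 1 lower in Cond 2, and 1 higher and 2 lower in Cond 3. Counts from 3 or 4 tested genes are too few to set against the shares over all genes. Those shares were 10.8% higher and 10.1% lower in Cond 2, and 19.5% and 18.8% in Cond 3. The 7 markers of mesendoderm summed to at most 5.86 TPM in any library. The part of these cell types in the differences of the guidance genes was not tested.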

How the data were processed

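RNA-Seq was measured in 12 libraries, grouped by the condition in their labels. Per the labels and methods, the authors trimmed reads (fastp 0.20.1 and cutadapt 4.1 are named), aligned them to GRCh38 with HISAT2 2.1.0 and counted them with featureCounts. The deposited counts are whole numbers of reads per gene and are not normalized. The TPM table deposited by the authors holds the same counts per gene length, scaled to a common total. How reads with several matches, and the strand, were handled in counting is not given in the sources used here. In the count table, 5 broken lines were left out, and 2042 genes of the TPM table have no count row, among them PLXNB2.

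Counts were normalized by TMM, filtered with filterByExpr and tested in edgeR 4.0.16 (R 4.3.3) by quasi-likelihood, with the 4 conditions in 1 fit and Benjamini-Hochberg adjustment over all 17747 genes. PLXNB2 was tested with limma 3.58.1 on log2(TPM + 1). Such a fold change understates that of low genes. The tests were checked on simulated data. Alternatives were upper-quartile normalization, DESeq2 1.42.0, other filters, limma on TPM with a pseudocount of 1 or 0.1, a block for the replicate number, fits on the 6 libraries of a comparison, and each library left out. Leaving out libraries for PLXNB2 and for every called comparison of a named gene was added after seeing the data. The deviations of libraries with the same number were weakly correlated, from -0.0713 to 0.113 and above 0.1 in 1 of 18 pairs. Those of pairs with Cond 4 were all positive, from 0.0291 to 0.0703. No pairing was used in the main fit, and the block for the replicate number is the alternative to it.

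Values in every library are given for members with an adjusted p under 0.05, a fold change above 2 and a mean of at least 1 TPM in a comparison, and for the highest member of each family in Cond 1. Other members are named with levels. Those named for a lost call, an unadjusted p or, with PLXNB2, their missing counts were chosen after their values were seen. Up to 4 genes are named per list, and some that the rule selects are not reported here. The members, lists and markers were chosen with earlier results of these data known. Coordinates are from GENCODE release 44, and promoters from RefSeq on GRCh38.p14.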

Additional observations from a re-analysis of the deposited data

How the results depend on the processing

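The number of members with an adjusted p under 0.05 stayed within 1.5 times under every alternative run. With limma at a pseudocount of 1 and 0.1, the lower calls in Cond 2 went from 10 to 6 and 5. The higher calls in Cond 3 against Cond 2 went from 21 to 11 and 11. The shares over all genes, 35717 in limma and 17747 in edgeR, fell as well. They went from 10.1% to 2.50% and 2.63% for the former, and from 19.0% to 6.66% and 6.32% for the latter. With a fold change above 2 as well, the 10 members in Cond 2 against Cond 1 became 6 with limma on log2(TPM + 1), with or without the requirement of 1 TPM in all libraries. The 8 in Cond 3 against Cond 1 became 3 with that requirement, 3 with limma and 2 with both, and the 7 in Cond 3 against Cond 2 became 3, 2 and 1. The requirement leaves 47 members with counts, and the pseudocount shrinks the changes of low genes. With each library left out in turn, 21 to 24 members were called in Cond 2 against Cond 1 (8 to 11 with a fold above 2). The full fit called 25. In Cond 3 against Cond 1 there were 31 to 35 (7 to 9), beside 36 in the full fit. In Cond 4 there were 0 to 0 (0 to 0), and in Cond 3 against Cond 2 there were 27 to 33 (5 to 9), beside 33. These counts can include members that the full fit did not call. Of its calls, 19 of 25 in Cond 2 against Cond 1 and 28 of 36 in Cond 3 against Cond 1 held in every such fit. In Cond 3 against Cond 2, 24 of 33 did. For PLXNB2 the log2 difference then ranged from -0.14 to -0.045 in Cond 2, 0.56 to 0.66 in Cond 3, -0.11 to -0.013 in Cond 4 and 0.67 to 0.73 in Cond 3 against Cond 2. With the replicate block, 28, 36, 0 and 36 members were called in Cond 2, Cond 3 and Cond 4 against Cond 1 and in Cond 3 against Cond 2. No direction was reversed among 62 called values of genes that the naming rule selects. Of these, 61 held with DESeq2, 60 with upper-quartile normalization, 61 without a filter, 46 of 47 with 1 TPM required, 60 with the 6 libraries alone, 61 with the replicate block (lost for NTN3 in Cond 2), 49 with limma at a pseudocount of 1 and 46 at 0.1. In fits without a library, 329 of 372 held. Members near 1 TPM rest on few counts, and 3 libraries of 1 line per condition limit what can be told apart.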
